A study of Mus musculus with 6 samples.

Results

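The expression of 10 genes of fatty acid synthesis and its regulation was followed in epididymal white adipose tissue, the fat depot around the epididymis, of mice that had been fasted or fed. They were chosen by name, with earlier results of these data known: Srebf1, Mlxipl, Fasn, Acly, Acacb, Thrsp, Scd2, Fads3, Pgd and Pnpla3. All 10 were found among the 3162 genes held in each library's file. The fasted animals were wild-type male C57BL/6J mice aged 16 weeks that had gone without food for 24 h, and their controls were mice of the same strain, sex, genotype and age with normal feeding. Each group had 3 mice, described in the series' design as biological replicates, and each mouse gave 1 RNA sequencing library. The comparison asked what short starvation does to the transcriptome and lipid metabolism of this depot.

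Fat cells make fatty acids from surplus carbohydrate. ATP citrate lyase releases acetyl-CoA from citrate in the cytosol, acetyl-CoA carboxylase turns it into malonyl-CoA, and fatty acid synthase joins these units into palmitate at the expense of NADPH, after which desaturases and elongases modify the chain. The transcription factors SREBP1 and ChREBP, which respond to insulin and to carbohydrate, are known as activators of these genes in liver and fat.

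Values are FPKM, fragments per kilobase of transcript scaled to the mapped fragments of a library, so levels of different genes can be set side by side. The 3162 genes are a subset whose values mostly differ between these same libraries: among the 2999 with a mean of at least 1 FPKM, fasted and fed values did not overlap in 93.4%. All 10 genes passed that filter on low values. Summed FPKM over the genes held was 180058 to 188061 in the fasted libraries and 190382 to 209201 in the fed libraries, and sequencing depth is unknown. Of 14 adipocyte marker genes listed, 5 were held (Plin1, Lep, Retn, Aoc3 and Slc2a4), and their summed level was 3138 to 3735 FPKM in fasted tissue and 5695 to 6809 FPKM in fed tissue. All 5 were lower in fasted tissue by limma, where 49.4% of all genes tested were lower and 41.1% higher. The listed adipocyte markers that were not held could not be followed. All 5 listed erythroid genes were held and were higher in fasted tissue, with a summed level of 3955 to 10136 FPKM, against 1892 to 2800 FPKM in fed tissue. The 3 endothelial markers held of 8 were also higher, at 199 to 261 FPKM summed in fasted tissue and 123.09 to 139.98 FPKM in fed tissue. Mural markers (4 held of 6, 3 higher and 1 lower) summed to 113 to 198 FPKM in fasted and 51.7 to 95.8 FPKM in fed tissue. Stromal progenitor markers (3 held of 8, 2 higher and 1 lower) summed to 1160 to 1800 FPKM in fasted and 684 to 948 FPKM in fed tissue. The 2 macrophage markers held of 12 moved in opposite directions, with a sum of 16.5 to 23.4 FPKM in fasted and 13.6 to 17.6 FPKM in fed tissue. Cd3e, the 1 lymphocyte marker held of 8, was at 0.89 to 0.98 FPKM in fasted and 0.15 to 0.23 FPKM in fed tissue. No marker held was at 0 in all libraries, and no muscle or mesothelial marker was among the genes analysed here. The log2 fold changes of the 5 adipocyte markers were unequal, from -5.01 for Lep to -0.58 for Retn. In whole tissue, fewer adipocytes, less RNA per adipocyte and a response of the markers themselves cannot be told apart. The part of these marker differences in the results below was not tested.

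Of the 10 genes, 9 have at least 1 promoter in the RefSeq table for GRCm38.p6, with 13 starts in all, and the remaining gene is Scd2. The promoters of Pnpla3, Fasn and Thrsp, which fell deeply, of Acly, and of Acacb, the gene that moved the other way, are shown. These promoters were picked with those changes known and are printed so that their motif matches can be read directly. They run from 250 bases before to 50 bases after the start on the strand of the gene. The Pnpla3 promoter is chr15:84167566-84167865 on the plus strand, that of Fasn chr11:120824498-120824797 on the minus strand, and that of Thrsp chr7:97417501-97417800 on the minus strand. Those of Acly and Acacb are chr11:100527951-100528250 on the minus strand and chr5:114165268-114165567 on the plus strand. Capitals mark every match to the motifs searched for.
Pnpla3: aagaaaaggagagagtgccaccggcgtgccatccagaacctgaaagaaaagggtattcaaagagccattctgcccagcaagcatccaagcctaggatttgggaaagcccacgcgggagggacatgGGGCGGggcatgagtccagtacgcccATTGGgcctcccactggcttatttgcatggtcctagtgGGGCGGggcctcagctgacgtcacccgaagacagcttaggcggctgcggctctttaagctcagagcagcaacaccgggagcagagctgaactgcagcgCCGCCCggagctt
Fasn: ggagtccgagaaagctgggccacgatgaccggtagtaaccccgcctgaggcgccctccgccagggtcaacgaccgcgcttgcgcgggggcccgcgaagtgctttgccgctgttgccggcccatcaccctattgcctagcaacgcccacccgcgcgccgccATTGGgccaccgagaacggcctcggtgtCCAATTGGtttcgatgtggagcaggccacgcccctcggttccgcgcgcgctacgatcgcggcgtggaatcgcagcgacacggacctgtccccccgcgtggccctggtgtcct
Thrsp: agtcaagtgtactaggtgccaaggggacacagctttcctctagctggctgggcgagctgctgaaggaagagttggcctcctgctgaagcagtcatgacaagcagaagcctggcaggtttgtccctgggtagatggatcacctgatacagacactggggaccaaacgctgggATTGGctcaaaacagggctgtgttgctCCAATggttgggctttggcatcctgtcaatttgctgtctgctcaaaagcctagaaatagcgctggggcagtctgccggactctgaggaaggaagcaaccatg
Acly: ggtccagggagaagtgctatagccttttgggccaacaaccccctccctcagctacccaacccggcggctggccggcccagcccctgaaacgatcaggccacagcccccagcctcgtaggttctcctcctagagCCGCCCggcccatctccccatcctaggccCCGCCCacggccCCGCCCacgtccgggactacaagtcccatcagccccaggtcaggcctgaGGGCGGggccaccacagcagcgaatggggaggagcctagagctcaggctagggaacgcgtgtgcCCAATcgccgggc
Acacb: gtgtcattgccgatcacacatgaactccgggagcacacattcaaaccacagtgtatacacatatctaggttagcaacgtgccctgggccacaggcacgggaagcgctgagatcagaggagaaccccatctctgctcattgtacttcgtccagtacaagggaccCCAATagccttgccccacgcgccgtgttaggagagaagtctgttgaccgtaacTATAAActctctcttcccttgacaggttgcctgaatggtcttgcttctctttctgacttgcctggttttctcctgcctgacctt

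The search covered 5 motifs on both strands. E-boxes, which USF factors bind, were searched as CACGTG. Sterol regulatory elements, the sites of SREBP, were searched as TCACNCCAC. The box bound by NF-Y was searched as CCAAT, the GC box as GGGCGG and the TATA box as TATAAA. The letters of the NF-Y box occurred in 10 of the 13 promoters and in all 9 genes. They occurred in 37.4% of all 32851 promoters in the table and, counting any start of a gene, in 44% of the genes held that have a promoter there. In the Fasn promoter 2 of its 3 matches to this box, on opposite strands, overlap each other. The Fasn and Thrsp promoters and a promoter of Pgd each carry the box on both strands within the 100 bases before the start. No GC box was matched in Fasn or Thrsp, nor in Acacb, whereas that Pgd promoter has one. A GC box was found in 6 of the 9 genes and in 7 of the 13 promoters, against 70% of the genes held and 35.7% of all promoters. The only E-box match was in a promoter of Mlxipl, and the only match to the sterol element was in its other promoter. An E-box occurred in 7.15% of all promoters and a sterol element in 1.24%, or in 11.9% and 1.59% of the genes held. Acacb alone among the 9 had a TATA box, which 13.6% of all promoters hold. The Acacb start in the RefSeq table lies inside the GENCODE gene, whose own 5′ end was not searched. A match is a string of letters and not evidence of binding. Only these exact letters within the 300 bases of each promoter were searched, so a missing match does not show that a site is missing.

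**Figure D1:**
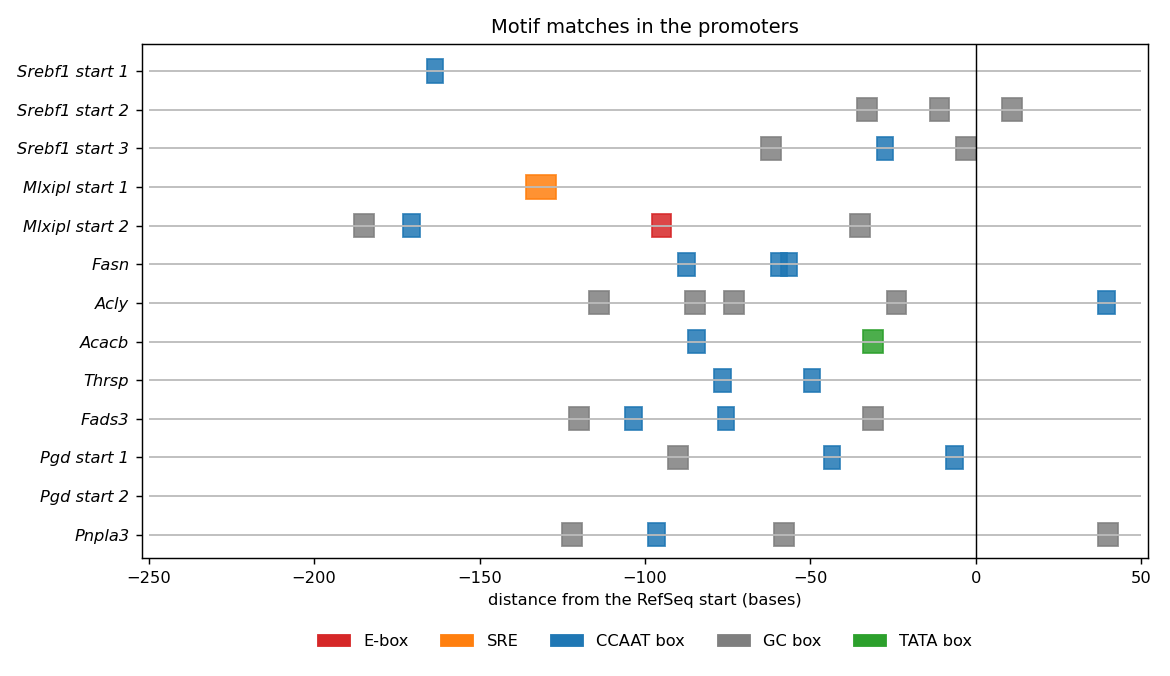
Motif matches along the 13 RefSeq promoters of 9 genes, one line per start, with the distance from the start in bases on the horizontal axis. Blue CCAAT boxes, the box bound by NF-Y, appear on 10 of the 13 lines, and E-box and sterol element matches appear once each, on the 2 lines of Mlxipl.

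Both regulators were lower in fasted tissue, and their fed values lay close together. Srebf1 (ENSMUSG00000020538, chr11:60199089-60222581, GRCm38, minus strand) encodes SREBP1 and had 38.3, 26.0 and 45.2 FPKM in the fasted mice, against 107, 114 and 96.8 FPKM in the fed mice. The 3 fed values span a ratio of 1.18, and the highest fasted value is under the lowest fed one by a wide margin. Its log2 fold change was -1.54 ± 0.20 (SE, on log2(FPKM + 1); limma, adjusted p = 0.00132), and 4.20% of the 2999 tested genes had a deeper fall. Mlxipl (ENSMUSG00000005373, chr5:135089890-135138382, plus strand) encodes ChREBP and had 45.1, 42.7 and 42.6 FPKM in the fasted mice, against 83.9, 81.9 and 72.6 FPKM in the fed mice. The log2 fold change was -0.85 ± 0.11 (limma, adjusted p = 0.00141), the smallest fall of the 9, and 15.7% of tested genes had a deeper one. An exon of Rai1 overlaps Srebf1 on the other strand, and one of Gm43500 overlaps Mlxipl. The labels and files do not say whether strand was used in counting, so the assignment of reads in those stretches is uncertain.

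**Figure D2:**
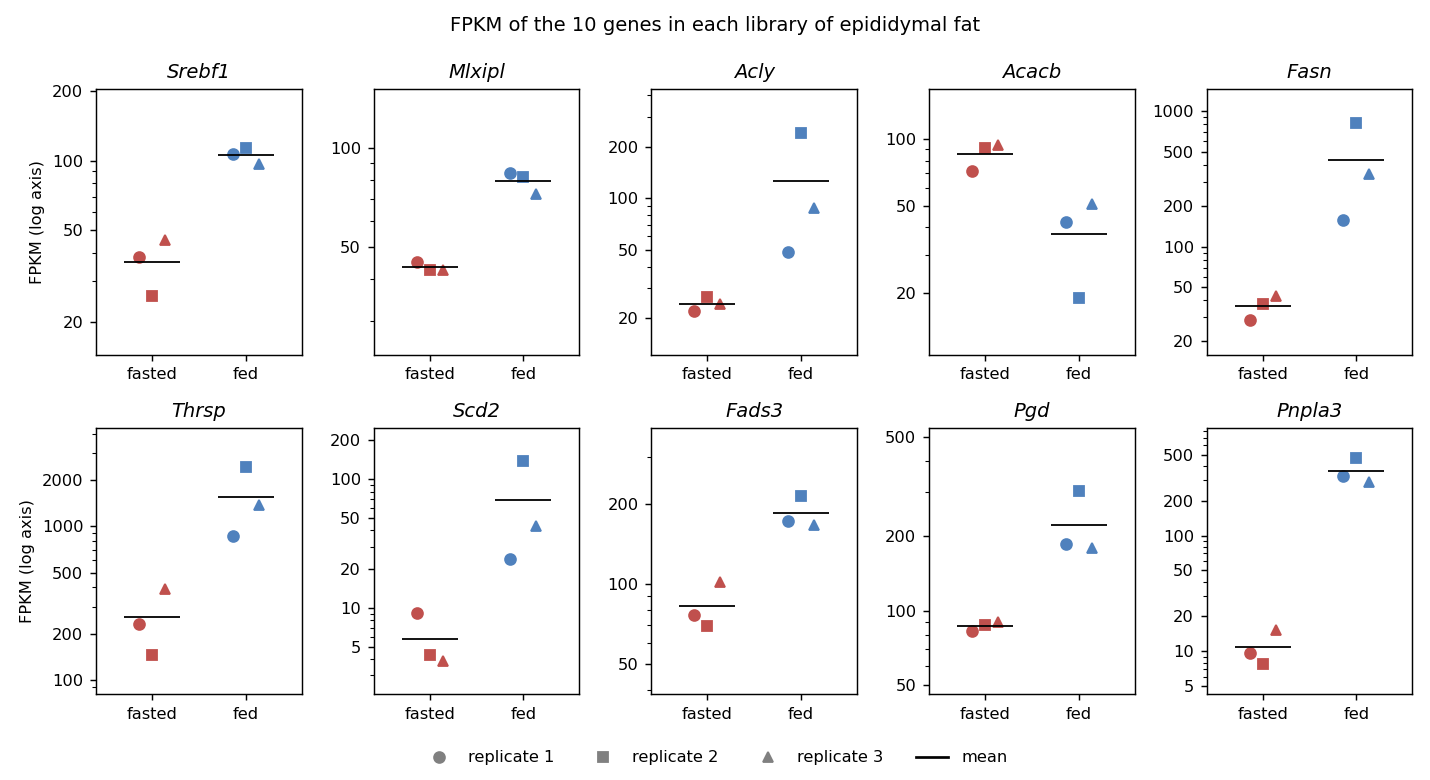
FPKM of each of the 10 genes by library on log axes, fasted in red and fed in blue, with 1 symbol per replicate number and a black line at the group mean (n = 3). In all 10 panels the groups are separate, and Acacb is the only gene with its fasted values, 71.5 to 93.9 FPKM, above its fed values, 19.0 to 50.8 FPKM.

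All 10 genes passed the test, 9 lower and 1 higher in fasted tissue, and in all 10 the groups did not overlap. This has to be read against the genes held: 90.5% of those tested passed by limma, 49.4% lower and 41.1% higher. The count therefore says little about these genes. Their median log2 fold change was -1.78, against -0.34 over all genes tested. The genes tested include both directions, and the 10 were chosen with earlier results of these data known. These medians are therefore a description and not a test.

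The supply of acetyl-CoA and the fatty acid chain itself showed deep falls with a large spread among the fed mice. Acly (ENSMUSG00000020917, chr11:100476353-100528000, minus strand), ATP citrate lyase, had 22.0, 26.7 and 24.2 FPKM in the fasted mice, against 48.7, 242 and 87.7 FPKM in the fed mice. The highest fed value was 4.97 times the lowest, while the fasted values lay close together. The log2 fold change was -2.02 ± 0.50 (limma, adjusted p = 0.00871), with a deeper fall in 1.70% of tested genes. Leaving out fed replicate 2 gave -1.40, and leaving out fed replicate 1 gave -2.54. The call was lost when the genes not analysed here were given a p of 1, at an adjusted p by limma of 0.0640 over protein-coding genes and 0.161 over all annotated genes (0.00278 to 0.161 over all alternatives).

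Fasn (ENSMUSG00000025153, chr11:120805846-120824547, minus strand), fatty acid synthase, had 28.7, 37.9 and 43.2 FPKM in the fasted mice, against 156, 811 and 343 FPKM in the fed mice. The lowest fed mouse was still well above every fasted mouse. Its log2 fold change was -3.25 ± 0.52 (limma, adjusted p = 0.00247), and 0.233% of tested genes had a deeper fall. Leaving out fed replicate 2 gave -2.65, and leaving out fed replicate 1 gave -3.83. Thrsp (ENSMUSG00000035686, chr7:97412938-97417730, minus strand) encodes the thyroid hormone responsive protein, also called Spot14, a nuclear and cytosolic protein that promotes lipogenesis. It had 230.0, 145 and 388 FPKM in the fasted mice, against 871, 2431 and 1383 FPKM in the fed mice. Thrsp was the most abundant of the 10 in both groups and, unlike Fasn and Acly, varied nearly as much among fasted mice as among fed mice. Its log2 fold change was -2.60 ± 0.44 (limma, adjusted p = 0.00292), with a deeper fall in 0.667% of tested genes. Counting all annotated genes, its limma adjusted p was 0.0541 and the call was lost (0.00236 to 0.0541 over all alternatives).

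Acacb (ENSMUSG00000042010, chr5:114146535-114250761, plus strand), the acetyl-CoA carboxylase that sits at the mitochondrial outer membrane, moved the other way. It had 71.5, 91.0 and 93.9 FPKM in the fasted mice, against 42.1, 19.0 and 50.8 FPKM in the fed mice. Fed replicate 2, the highest fed library for Fasn, Acly and Thrsp, was the lowest of all 6 for Acacb. The log2 fold change was 1.27 ± 0.33 (limma, adjusted p = 0.0102), with a larger rise in 5.70% of tested genes, and it was 0.86 without fed replicate 2. This call was lost at an adjusted p = 0.0752 over protein-coding genes and 0.190 over all annotated genes (0.00743 to 0.190 over all alternatives). Within each library the ratio of Acacb to Fasn was 2.49, 2.40 and 2.18 in the fasted mice, against 0.269, 0.0235 and 0.148 in the fed mice. The fasted ratios were nearly equal, whereas the fed ratios spread over an order of magnitude. The difference was 4.59 on the log2 scale, and 3.56 without fed replicate 2 (exact permutation test, two-sided, p = 0.1, the smallest that 3 against 3 allows; 0.16 adjusted over 8 ratios).

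The desaturases held among the 10 fell by unequal amounts. Scd2 (ENSMUSG00000025203, chr19:44293674-44306864, plus strand), a stearoyl-CoA desaturase that makes monounsaturated fatty acids, had 9.11, 4.28 and 3.87 FPKM in the fasted mice, against 24.1, 138 and 43.4 FPKM in the fed mice. It had the widest fed range of the 10, with the highest value 5.74 times the lowest, and in fasted tissue it was the least abundant. The log2 fold change was -3.07 ± 0.59 (limma, adjusted p = 0.00421), with a deeper fall in 0.3001% of tested genes. Leaving out fed replicate 2 gave -2.39, and leaving out fed replicate 1 gave -3.62. Counting all annotated genes, the limma adjusted p was 0.0779 and the call was lost (0.00233 to 0.0779 over all alternatives). Scd2 belongs to a family of close copies, so its reads may be shared with them. Fads3 (ENSMUSG00000024664, chr19:10041569-10060110, plus strand), a member of the front-end desaturase family, had 76.7, 69.7 and 102 FPKM in the fasted mice, against 173, 214 and 166 FPKM in the fed mice. Its fed values spanned a ratio of 1.29, and its log2 fold change was -1.15 ± 0.18 (limma, adjusted p = 0.00216), with a deeper fall in 8.44% of tested genes.

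Pgd (ENSMUSG00000028961, chr4:149149991-149166771, minus strand), phosphogluconate dehydrogenase, supplies NADPH through the pentose phosphate pathway. It had 83.1, 87.3 and 89.9 FPKM in the fasted mice, against 186, 303 and 179 FPKM in the fed mice. The fasted values were almost level, and the fed spread came from replicate 2. Its log2 fold change was -1.31 ± 0.20 (limma, adjusted p = 0.00231), with a deeper fall in 6.47% of tested genes. Pnpla3 (ENSMUSG00000041653, chr15:84167837-84187236, plus strand), a lipid droplet protein with acyl hydrolase and transacylase activity and a target of SREBP1 in liver, had 9.62, 7.72 and 15.3 FPKM in the fasted mice, against 327, 470.0 and 289 FPKM in the fed mice. No fasted value came near a fed one, and the fed mean was 33.3 times the fasted mean. The log2 fold change was -4.95 ± 0.26 (limma, adjusted p = 0.000188), and 0.0333% of tested genes, which is 1 gene, had a deeper fall. The predicted gene Gm49513 overlaps exons of Pnpla3 on the same strand and may share reads with it.

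The order of levels differed between the groups. In fasted tissue Thrsp stood above the rest, followed by Pgd, Acacb and Fads3, whose ranges overlapped from neighbour to neighbour, then by Mlxipl, Fasn, Srebf1 and Acly, which overlapped likewise, and last by Pnpla3 and Scd2. In fed tissue Thrsp was again clear of the others, with Fasn, Pnpla3, Pgd, Fads3, Acly and Srebf1 overlapping in turn below it, and then Mlxipl, Scd2 and Acacb, which overlapped likewise. These places are by group means. Acacb had the lowest fed mean, but it was above Scd2 in fed replicates 1 and 3 and below it only in fed replicate 2. Fasn and Srebf1 had almost the same mean in fasted tissue, 36.6 ± 7.33 and 36.5 ± 9.69 FPKM, against 437 ± 337 and 106 ± 8.59 FPKM in fed tissue (SD, n = 3 per group).

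Among themselves the 10 genes differed in how much the fed mice varied. The SD of log2(FPKM + 1) was 1.18 for Fasn, 1.16 for Acly and 1.26 for Scd2 over the fed mice, where 99.6%, 99.6% and 99.7% of tested genes varied less. Over the fasted mice the SDs of these 3 genes were 0.29, 0.13 and 0.58. The median gene had an SD of 0.18 in fasted tissue and 0.17 in fed tissue. Srebf1 went the other way, with an SD of 0.40 over the fasted mice, above 88.3% of genes, and 0.12 over the fed mice, above 29.6%. Mlxipl was steady in both groups, with an SD of 0.05 in fasted and 0.11 in fed mice. The fed SDs of the other genes lay in between, at 0.74 for Thrsp, 0.73 for Acacb, 0.42 for Pgd, 0.36 for Pnpla3 and 0.20 for Fads3. In 7 of the 10 genes the fed SD was larger than the fasted SD, as it was in 51.2% of all genes tested.

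**Figure D3:**
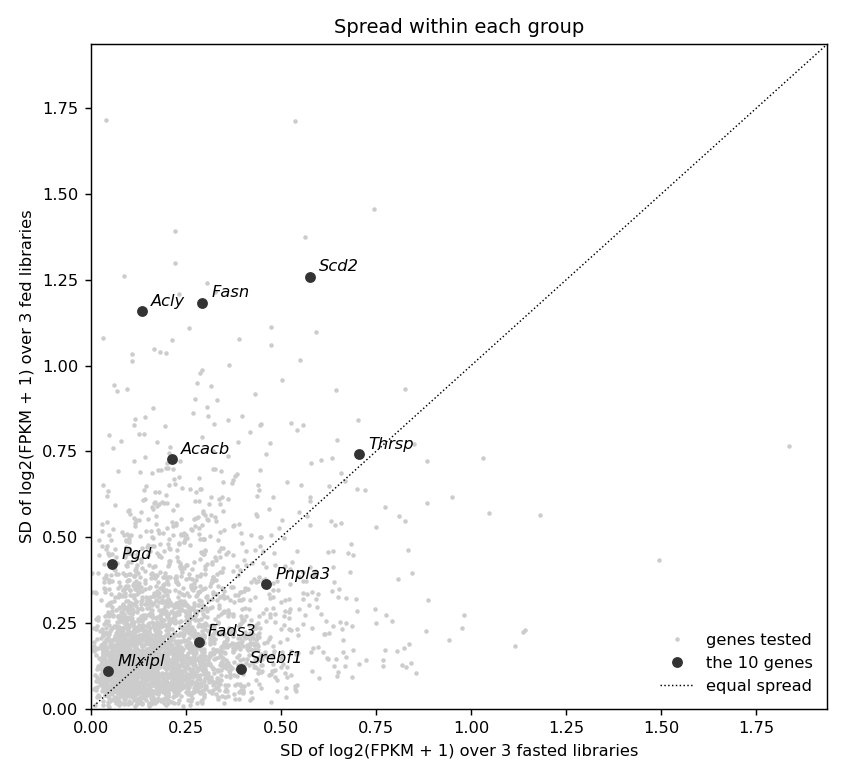
SD of log2(FPKM + 1) over the 3 fasted libraries (horizontal) and the 3 fed libraries (vertical), with grey dots for the 2999 genes tested and black dots for the 10 genes; the dotted line marks equal spread. Scd2, Fasn and Acly sit near the top, at fed SDs of 1.16 to 1.26, whereas Srebf1 and Mlxipl lie at 0.12 and 0.11.

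One fed mouse stood apart in some of these genes. In 8 of the 10 the top fed value came from replicate 2, and in Acacb the bottom one did. This mouse led the fed group in 44.9% of all genes tested that had no ties, and in 62.9% of those lower in fasted tissue. Its value relative to the mean of the other 2 fed mice was 4.10 for Scd2, 3.55 for Acly, 3.24 for Fasn and 2.16 for Thrsp. That ratio was 1.66 for Pgd, 1.53 for Pnpla3, 1.26 for Fads3, 1.12 for Srebf1, 1.05 for Mlxipl and 0.41 for Acacb. The median over all genes tested was 1.05. Fasn, Acly, Thrsp and Scd2 shared 1 order of the fed mice, replicate 2 over 3 over 1, an order seen in 24.0% of the genes tested that had no ties. Srebf1, Fads3, Pgd and Pnpla3 shared another, replicate 2 over 1 over 3, seen in 20.9%. The same mouse had 2.05 FPKM of Adam7, a marker of epididymal epithelium, where the other 5 libraries had 0 to 0.03 FPKM, and 1.25 FPKM of Dio2, a brown fat marker, where the others had 0.03 to 0.14 FPKM. Those are the only genes held of the 7 and 5 listed for these tissues, and their part in the values of fed replicate 2 was not tested. Without this library 9 of the 10 genes were still lower and Acacb still higher by limma.

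Ratios taken within a library do not depend on how libraries are scaled, and 7 of the genes were set against Srebf1 in this way. Thrsp and Mlxipl were not. Pnpla3 had 0.251, 0.297 and 0.339 of the Srebf1 level in the fasted mice, against 3.06, 4.13 and 2.99 times that level in the fed mice. Each group was tight, the groups were far apart, and the difference was -3.52 on the log2 scale. Acacb moved away from Srebf1 in the other direction, with ratios of 1.86, 3.50 and 2.08 in the fasted mice, against 0.394, 0.167 and 0.525 in the fed mice, a log2 difference of 2.87. The ratio of Fasn to Srebf1 was 0.748, 1.455 and 0.956 in the fasted mice, against 1.462, 7.12 and 3.55 in the fed mice. The groups only just separated here, and the log2 difference of -1.72 was -1.17 without fed replicate 2. Fads3 over Srebf1 was a little higher in fasted mice, at 2.001, 2.68 and 2.26, against 1.62, 1.88 and 1.72 in fed mice, with a log2 difference of 0.41. For these 4 ratios the exact permutation test gave p = 0.1, two-sided, the smallest that 3 against 3 can give, and 0.16 adjusted over the 8 ratios compared.

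The other 3 ratios to Srebf1 overlapped between groups. Scd2 over Srebf1 was 0.238, 0.164 and 0.0857 in the fasted mice, against 0.225, 1.22 and 0.448 in the fed mice (log2 difference -1.73, exact permutation p = 0.2, and -1.09 without fed replicate 2). Acly over Srebf1 was 0.575, 1.026 and 0.536 in the fasted mice, against 0.455, 2.13 and 0.906 in the fed mice. Its log2 difference of -0.49 (exact permutation p = 0.7) turned to 0.08 without fed replicate 2, so the direction rests on that mouse. Pgd over Srebf1 had a log2 difference of 0.25 (exact permutation p = 0.5), which was 0.44 without fed replicate 2. With 3 mice a group these p-values do not show that Acly, Scd2 and Pgd moved in step with Srebf1.

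**Figure D4:**
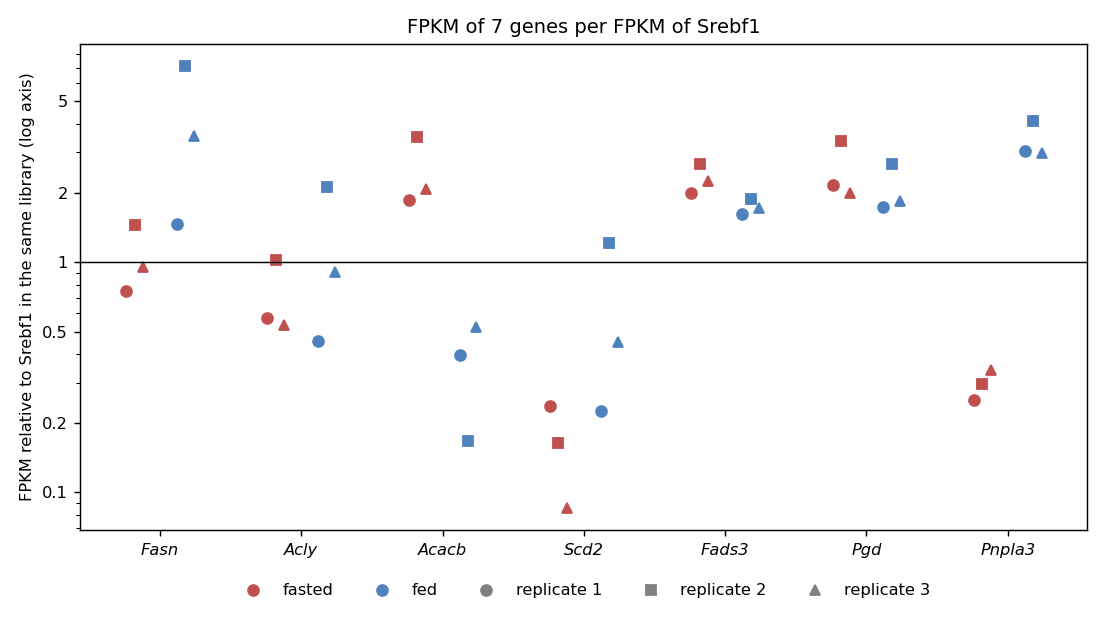
FPKM of 7 genes divided by the FPKM of Srebf1 in the same library, on a log axis, with fasted libraries in red at the left and fed libraries in blue at the right of each gene and 1 symbol per replicate number. Pnpla3 lies at 0.251 to 0.339 in fasted and 2.99 to 4.13 in fed mice, and Acacb is reversed, at 1.86 to 3.50 in fasted and 0.167 to 0.525 in fed mice.

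Of 40 other genes listed for carbon supply, NADPH supply, malonyl-CoA and chain synthesis, desaturation and elongation, 16 were held and 15 tested, of which 14 were lower and 1 higher in fasted tissue (limma), where 49.4% of all genes tested were lower. Their median log2 fold change was -0.97, against -0.34 over all genes tested. With median-ratio or quantile scaling 9 were lower, as Taldo1, H6pd, Mecr, Elovl1 and Tecr no longer passed. Adjusted over protein-coding genes 3 were lower, and over all annotated genes 0. The acetyl-CoA carboxylase of the cytosol, Acaca, had 25.6, 31.3 and 41.8 FPKM in the fasted mice, against 47.5, 112 and 82.1 FPKM in the fed mice. It fell where Acacb rose (log2 fold change -1.21 ± 0.31). Mlycd, malonyl-CoA decarboxylase, which breaks malonyl-CoA down, was the gene that was higher, at 42.5, 44.4 and 47.4 FPKM in the fasted mice, against 24.1, 24.2 and 27.1 FPKM in the fed mice (log2 fold change 0.81 ± 0.11, limma adjusted p = 0.00169, 0.00118 to 0.0313 over the 13 alternatives).

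Of 5 genes listed for carbon supply, 3 were held, Acly among them. Both others held were lower, where 49.4% of all genes tested were lower. Slc25a1, the carrier that exports citrate from mitochondria, averaged 115 ± 9.21 FPKM in fasted and 260 ± 103 FPKM in fed mice, a log2 fold change of -1.11 ± 0.25. Acss2, which makes acetyl-CoA from acetate, had 13.2, 15.9 and 16.6 FPKM in the fasted mice, against 25.9, 113 and 47.9 FPKM in the fed mice, the same fed order as Acly (log2 fold change -1.72 ± 0.45). Of 11 genes listed for NADPH supply, 7 were held, Pgd among them. All 6 others were lower, against the same share of 49.4%, and genes not held could not be followed. Me1, cytosolic malic enzyme, averaged 85.4 ± 7.69 FPKM in fasted and 235 ± 139 FPKM in fed mice (log2 fold change -1.30 ± 0.35). G6pdx, the first enzyme of the pentose phosphate pathway, averaged 78.2 ± 26.7 FPKM in fasted and 161 ± 14.8 FPKM in fed mice (log2 fold change -1.09 ± 0.24). The other 4, Idh1, H6pd, Rpe and Taldo1, had log2 fold changes of -0.97 to -0.47.

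Among genes that act on the chain, the paralogue of Thrsp, Mid1ip1, averaged 12.9 ± 4.59 FPKM in fasted and 36.6 ± 21.7 FPKM in fed mice (log2 fold change -1.33 ± 0.41, limma adjusted p = 0.0173). Without fasted replicate 3 its adjusted p = 0.0587 by limma missed the threshold (0.0109 to 0.321 over all alternatives). Elovl6, the elongase that acts on palmitate, had 1.26, 1.2 and 0.96 FPKM in the fasted mice, against 2.71, 14.5 and 5.85 FPKM in the fed mice (log2 fold change -1.78 ± 0.45). It was close to the filter in fasted tissue and followed the fed order of Fasn. Mecr, of mitochondrial fatty acid synthesis, and the chain-lengthening genes Elovl1 and Tecr had log2 fold changes of -0.50, -0.43 and -0.39. Scd3, a close copy of Scd2 that fell below the filter, had 1.03, 1.84 and 0.36 FPKM in the fasted mice, against 0.19, 0.18 and 0.04 FPKM in the fed mice. In 11 of the 14 lower genes (78.6%) the top fed value came from fed replicate 2, as it did in 62.9% of all genes lower in fasted tissue.

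**Figure D5:**
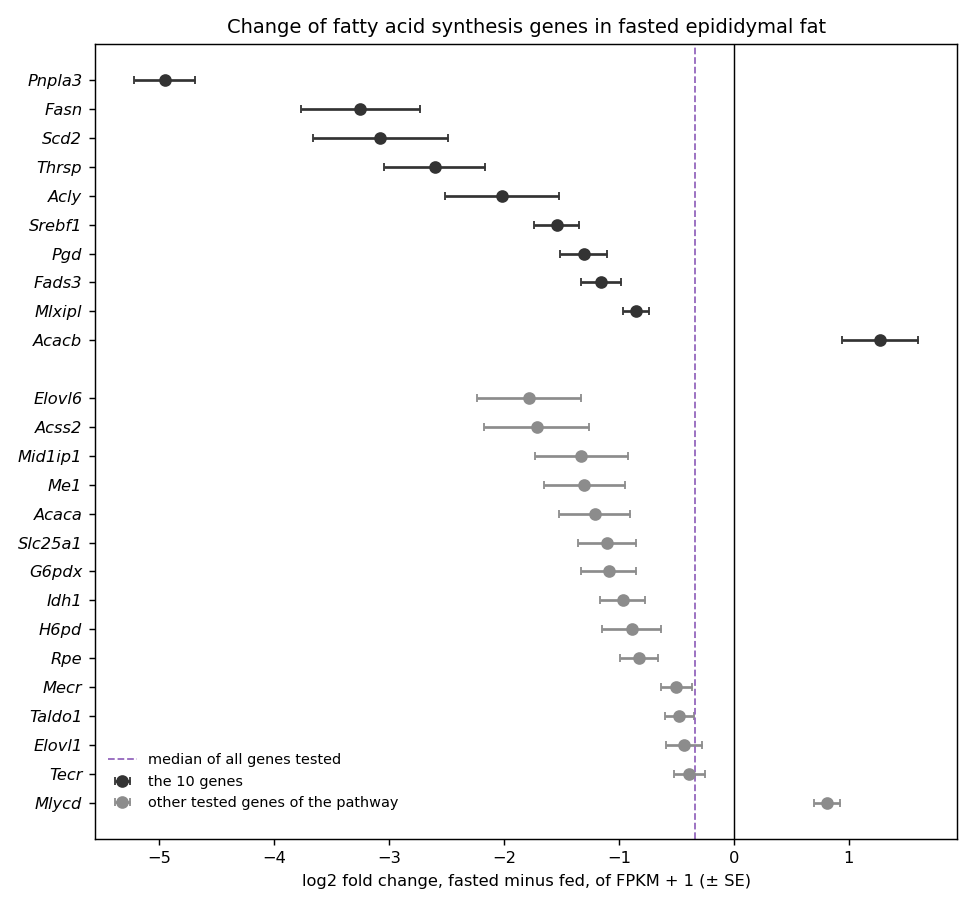
Log2 fold change of FPKM + 1, fasted minus fed, with standard errors, for the 10 genes (black, above) and the 15 other tested genes of the pathway (grey, below); the dashed line marks the median of all genes tested, -0.34. Acacb at 1.27 and Mlycd at 0.81 are the only points right of 0.

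Of 30 other genes listed as regulators of SREBP1 or ChREBP, adipogenic factors or relatives of Pnpla3, 8 were held and 7 tested, of which 4 were lower and 2 higher in fasted tissue by limma, near the shares of 49.4% and 41.1% over all genes tested. Their median log2 fold change was -0.36, against -0.34 over all genes tested. Srebf2, the sterol-regulating relative of Srebf1, averaged 9.0 ± 0.67 FPKM in fasted and 12.1 ± 1.65 FPKM in fed mice, with a log2 fold change of -0.39 ± 0.14. Insig1, which retains SREBP in the endoplasmic reticulum, had 34.9, 45.8 and 38.2 FPKM in the fasted mice, against 51.8, 126 and 42.6 FPKM in the fed mice, and did not pass (log2 fold change -0.72 ± 0.37, limma adjusted p = 0.0891). Its groups overlapped, and fed replicate 2 again stood above the rest. Leaving out fed replicate 2 gave a log2 fold change of -0.25, and leaving out fed replicate 3 gave -1.02, where it passed (limma adjusted p = 0.0371, within 0.0371 to 1 over all alternatives). Rxra, the partner of liver X receptors, and Cebpa, an adipogenic factor, had log2 fold changes of -0.35 ± 0.12 and -0.36 ± 0.14, near the median of all genes tested, and Trib1 had -0.55 ± 0.17. The fasted and fed values of Cebpa overlapped. The count of 4 falls by limma was 0 with median-ratio scaling, 2 with quantile scaling, 0 without fed replicate 1, 1 without fasted replicate 1, and 2 without fasted replicate 2, fasted replicate 3 or fed replicate 2. Both wider adjustments, over protein-coding and over all annotated genes, gave 0 falls and left Pnpla7 as the 1 higher call. Sik1, a kinase that represses lipogenic transcription in liver, rose, with 25.4, 21.9 and 16.6 FPKM in the fasted mice, against 12.4, 12.1 and 12.8 FPKM in the fed mice (log2 fold change 0.71 ± 0.16), although the call was lost when genes not analysed here were counted.

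Of 7 genes listed for the patatin-like family, 3 were held and 2 tested, Pnpla3 and Pnpla7, which moved in opposite directions. Family members not held could not be followed. Pnpla7, a lysophospholipase of the endoplasmic reticulum and lipid droplets, had 38.4, 51.3 and 36.0 FPKM in the fasted mice, against 5.67, 6.46 and 9.60 FPKM in the fed mice. The groups were far apart (log2 fold change 2.39 ± 0.21, limma adjusted p = 0.000414, and passed in the 13 alternatives). Pnpla5, another family member, was below the filter, with 0.03 FPKM in 1 fasted mouse and listed at 0 in the other 2, against 0.23, 0.72 and 0.17 FPKM in the fed mice.

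Some other genes had profiles close to those of the 10. Likeness was measured as the root mean square difference between log2(FPKM + 1) profiles over the 6 libraries, each centred on its own mean, where 0 is an identical profile. For Srebf1 the nearest were Synpo2 at 0.10, Cav2 at 0.12 and Ehd2 at 0.14. For Mlxipl they were Cdc45 at 0.07, with Cks1b and Lamc1 at 0.08. The nearest to Fasn were Paqr9 at 0.26, Prr32 at 0.31 and Tuba1a at 0.46. Acly was nearest to Wfdc21 at 0.16, Hist2h3c2 at 0.17 and Odf3l1 at 0.18. Tuba1a was also the nearest to Scd2, at 0.47, ahead of Ptger3 at 0.51 and Fasn at 0.52. Thrsp was nearest to Igfals at 0.21, Orm3 at 0.30 and Prr32 at 0.30. Fads3 had the closest match of all in Emc9 at 0.03, with Plbd1 at 0.07 and Kcna5 at 0.08. Pgd was nearest to Col6a1 at 0.09, Jpt2 at 0.10 and Tspan17 at 0.10. Pnpla3 was nearest to the leptin gene Lep at 0.35, followed by Cdsn and Dgat2 at 0.59. Acacb was nearest to Dennd2a at 0.23, Tcn2 at 0.24 and Osbp2 at 0.24. These profiles share the same 6 libraries and their group difference, so likeness is a description.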

How the data were processed

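RNA sequencing of epididymal fat from 3 fasted and 3 fed mice was used. Tissue was lysed in Trizol and Illumina libraries were made, per the labels' protocols. The deposited files give FPKM, per the file headers, with 1 library in each. RSEM and the genome builds mm10 and GRCm38.p6 are named, per the submitters' processing notes, while aligner and tool versions are not given there. No depth can be recovered, so no counting interval is given.

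Identifiers were matched to symbols with GENCODE M21 (GRCm38), for 3161 of 3162. Groups came from the treatment label, and replicate numbers, in accession order, pair no mice. Differences in log2(FPKM + 1) were tested by limma 3.58.1 under R 4.3.3 (eBayes with a trend), two-sided, in the 2999 genes whose mean reached 1 FPKM. Benjamini-Hochberg adjustment was used, with a threshold of 0.05. This adjustment covers a chosen set of genes and is not a genome-wide rate. The test was also tried on simulated data in which most genes were unchanged, unlike the genes held, so that trial does not show its error rates here. Alternatives were a pseudocount of 0.1, no filter, median-ratio and quantile scaling, no variance trend, adjustment over all 22028 annotated protein-coding genes or all 55536 annotated genes with unheld genes at a p of 1, and leaving out each library. Ratios within libraries used exact permutation tests (scipy 1.17.1). The members and lists were chosen with earlier results of these data known. Genes named are the 10, the held genes of the pathway and marker lists, and the 3 nearest profiles of each of the 10. Predicted genes with Gm or Rik names and genes with no symbol were left out of the search for nearest profiles. Promoters come from RefSeq (GRCm38.p6).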

Additional observations from a re-analysis of the deposited data

How the results depend on the processing

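Over 13 alternatives the direction of change stayed the same for each of the 10 genes. The wider adjustments, no filter and no variance trend leave the fold change as it was, so direction could not change there. Of 130 values, 124 kept their side of the threshold. The 6 exceptions all came from counting genes not analysed here with a p of 1: over protein-coding genes Acly (log2 fold change -2.02) and Acacb (1.27) no longer passed, and over all annotated genes Scd2 (-3.07) and Thrsp (-2.60) joined them. Of the 10, higher calls then numbered 0 in both adjustments. Over all genes tested, 552 were higher and 495 lower over protein-coding genes, and 172 and 192 over all annotated genes, against 1232 and 1482. With median-ratio scaling 787 genes were lower, and the median over all genes moved by 0.20, or by 0.13 with quantile scaling. Among other genes of the pathway, lower calls numbered 9 with either scaling, 3 over protein-coding genes and 0 over all annotated genes, and higher calls numbered 2 with no filter, which adds Scd3. The cause of the changes with scaling was not tested.

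Leaving out each library in turn gave log2 fold changes of -1.71 to -1.32 for Srebf1, -0.92 to -0.81 for Mlxipl, -3.83 to -2.65 for Fasn, -2.54 to -1.40 for Acly, 0.86 to 1.55 for Acacb, -2.96 to -2.22 for Thrsp, -3.62 to -2.39 for Scd2, -1.31 to -1.04 for Fads3, -1.44 to -1.06 for Pgd and -5.21 to -4.75 for Pnpla3. Over all genes tested 1128 to 1230 were then higher and 1036 to 1302 lower, and of the other genes of the pathway 12 to 13 were lower. No paired analysis was possible because the labels give no replicate numbers that fasted and fed mice share.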

Other observations

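Dehydrogenases of the oxidative pentose phosphate pathway did not rank the fed mice alike. G6pdx had 51.7, 77.6 and 105 FPKM in the fasted mice, against 176, 147 and 160 FPKM in the fed mice, so that fed replicate 2 was its lowest fed library. H6pd, its counterpart in the endoplasmic reticulum, had 80.0, 89.9 and 140 FPKM in the fasted mice, against 193, 142 and 236 FPKM in the fed mice, again with fed replicate 2 lowest. Pgd, which acts later in the pathway than G6pdx, was highest in that same mouse. Among the fasted mice G6pdx spread over 51.7 to 105 FPKM, whereas Pgd stayed within 83.1 to 89.9 FPKM.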
